A study of Rattus norvegicus with 32 samples.

Results

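The rat mammary gland was examined here for 7 genes of fatty acid oxidation and of its control by PPARs, the peroxisome proliferator-activated receptors: Angptl4, Ucp3, Hpgd, Pdk4, Cpt1a, Cpt1b and Ehhadh. The members were every probe set whose gene symbol in the array annotation was one of these names and whose median intensity over 31 arrays was at least 10. A probe set is the group of short oligonucleotides that reads 1 transcript on the array. All 7 named genes were found, and 11 of their 11 probe sets passed the minimum, among 22943 probe sets and 11797 genes with a single symbol. Ucp3, Hpgd, Pdk4 and Cpt1a had a pair of probe sets each, and the one with the higher mean log2 intensity stands for the gene unless another is named. The 7 names were chosen by the change of these genes over the day and the cycle in the same arrays, and Angptl4, Ucp3 and Hpgd were singled out as genes that may move together, so the likeness of those 3 is given as a description only.

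The samples were mammary gland tissue, of mixed cell types, from adult virgin female Sprague-Dawley rats on standard chow, with no treatment and with regular 4-day estrous cycles, and each rat gave 1 array. With hours counted from the midnight that opened the cycle, 8 rats were of day 1 (7.0 to 17.6 h), 8 of day 2 (31.6 to 43.0 h), 8 of day 3 (57.0 to 67.1 h) and 7 of day 4 (79.3 to 88.1 h). Estrus fell on day 2. The array of 40.0 h had been set aside because its data seemed corrupted, and is left out of every value below unless it is named. Time within the day was read as the clock hour, and for description the rats were divided soon after noon into 17 later rats (13.0 to 19.1 h) and 14 earlier rats (7.0 to 11.9 h).

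The 31 array medians ran from 49.9 to 54.7. Of the tissue markers, 9 of 10 for adipocytes, 8 of 8 for luminal epithelium and 14 of 15 for skeletal muscle were measured. The skeletal muscle score, the mean centred log2 intensity of its markers, ran from -4.18 to 2.87 over the rats, against -0.54 to 0.79 for the adipocyte score and -0.54 to 0.54 for the luminal score. The brown adipocyte genes Ucp1, Elovl3 and Dio2 were not among the probe sets tested. Because each array reads tissue of mixed cell types, fewer cells of a type and less RNA per cell cannot be told apart.

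PPARs are nuclear receptors that bind fatty acids and their derivatives, pair with RXR and switch on genes for the uptake, storage and burning of fat. Fatty acids enter mitochondria through the carnitine palmitoyltransferases, of which Cpt1a is the form of liver and many other tissues and Cpt1b the form of muscle and brown fat. Ehhadh is a bifunctional enzyme of peroxisomal beta-oxidation, Ucp3 a mitochondrial carrier of the uncoupling protein family, and Pdk4 a kinase that shuts off pyruvate dehydrogenase and so spares glucose while fat is burned. Angptl4 is a secreted protein that inhibits lipoprotein lipase and is known to rise on fasting in adipose tissue. Hpgd is the enzyme that inactivates prostaglandins. The mammary gland of a virgin rat is a tree of epithelial ducts within a fat pad.

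The sequences just before the start sites of Angptl4, Pdk4 and Ucp3 are shown because the first pair had the closest profiles among the members and Ucp3 alone held a searched motif. They are the 250 bases before the start in RefSeq's GRCr8 annotation, at chr7:15258682-15258931 on the minus strand for Angptl4, chr4:34568330-34568579 on the minus strand for Pdk4 and chr1:164227660-164227909 on the plus strand for Ucp3. The Angptl4 window lies within the span of the gene (chr7:15252450-15259971), because the listed start lies downstream of the outer end of the gene. The same holds for Cpt1a, whose window was searched but is not shown (chr1:209995910-209996159, within chr1:209993881-210056329). The capitals mark the motif AGGTCA, the core of the element that PPAR and RXR bind.
Angptl4: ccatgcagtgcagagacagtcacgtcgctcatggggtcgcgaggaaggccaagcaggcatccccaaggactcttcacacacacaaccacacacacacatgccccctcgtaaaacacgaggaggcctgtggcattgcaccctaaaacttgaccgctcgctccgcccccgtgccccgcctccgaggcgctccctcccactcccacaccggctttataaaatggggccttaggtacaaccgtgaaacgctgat
Pdk4: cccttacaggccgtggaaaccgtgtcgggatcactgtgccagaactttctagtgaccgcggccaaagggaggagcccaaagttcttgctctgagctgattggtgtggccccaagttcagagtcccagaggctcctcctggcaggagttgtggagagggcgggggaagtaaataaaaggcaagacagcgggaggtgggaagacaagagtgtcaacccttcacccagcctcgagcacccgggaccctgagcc
Ucp3: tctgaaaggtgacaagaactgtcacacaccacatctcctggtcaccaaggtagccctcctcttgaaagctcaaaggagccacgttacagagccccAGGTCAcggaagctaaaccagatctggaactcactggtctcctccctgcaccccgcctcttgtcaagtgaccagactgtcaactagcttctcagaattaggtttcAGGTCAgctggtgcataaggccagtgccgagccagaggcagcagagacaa

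The motif was found at positions -155 and -50 of the Ucp3 window, both on the strand of the gene, and in none of the windows of Angptl4, Cpt1a, Ehhadh, Hpgd and Pdk4. Both strands were searched, and 14.1% of 33469 rat promoter windows of the same length held it. The direct repeat AGGTCANAGGTCA, which contains it at both ends and was in 0.0508% of all windows, was in none of the 6. The clock motifs CACGTG (5.59% of all windows) and TTATGNAA (3.28%), and the glucocorticoid receptor motif GNACANNNTGTNC (0.373%), were in none of them either. A match describes letters only and is no evidence that a factor binds there.

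Intensity differed widely between rats for most of the genes, as the plot of intensity by hour of the cycle shows. Pdk4 ran from 269 at 65.6 h to 5219 at 59.8 h, a 19.4-fold range with a median of 1534. Hpgd had a 19.2-fold range, Ucp3 a 13.9-fold range and Angptl4 an 11.7-fold range. Cpt1a had the narrowest, 2.8-fold, from 603 at 64.2 h to 1659 at 35.5 h, with 5.0-fold for Cpt1b and 4.7-fold for Ehhadh. The probe sets of a gene followed each other across the 31 rats, with a Pearson's r of 0.97 for Hpgd, 0.94 for Pdk4, 0.89 for Ucp3 and 0.84 for Cpt1a. The main and the second probe sets were 1376191_at and 1387631_at for Hpgd, 1378074_at and 1369150_at for Pdk4, 1382958_at and 1387681_at for Ucp3, and 1386946_at and 1367836_at for Cpt1a. Angptl4 was read by 1388924_at, Cpt1b by 1367742_at and Ehhadh by 1368283_at.

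**Figure D1:**
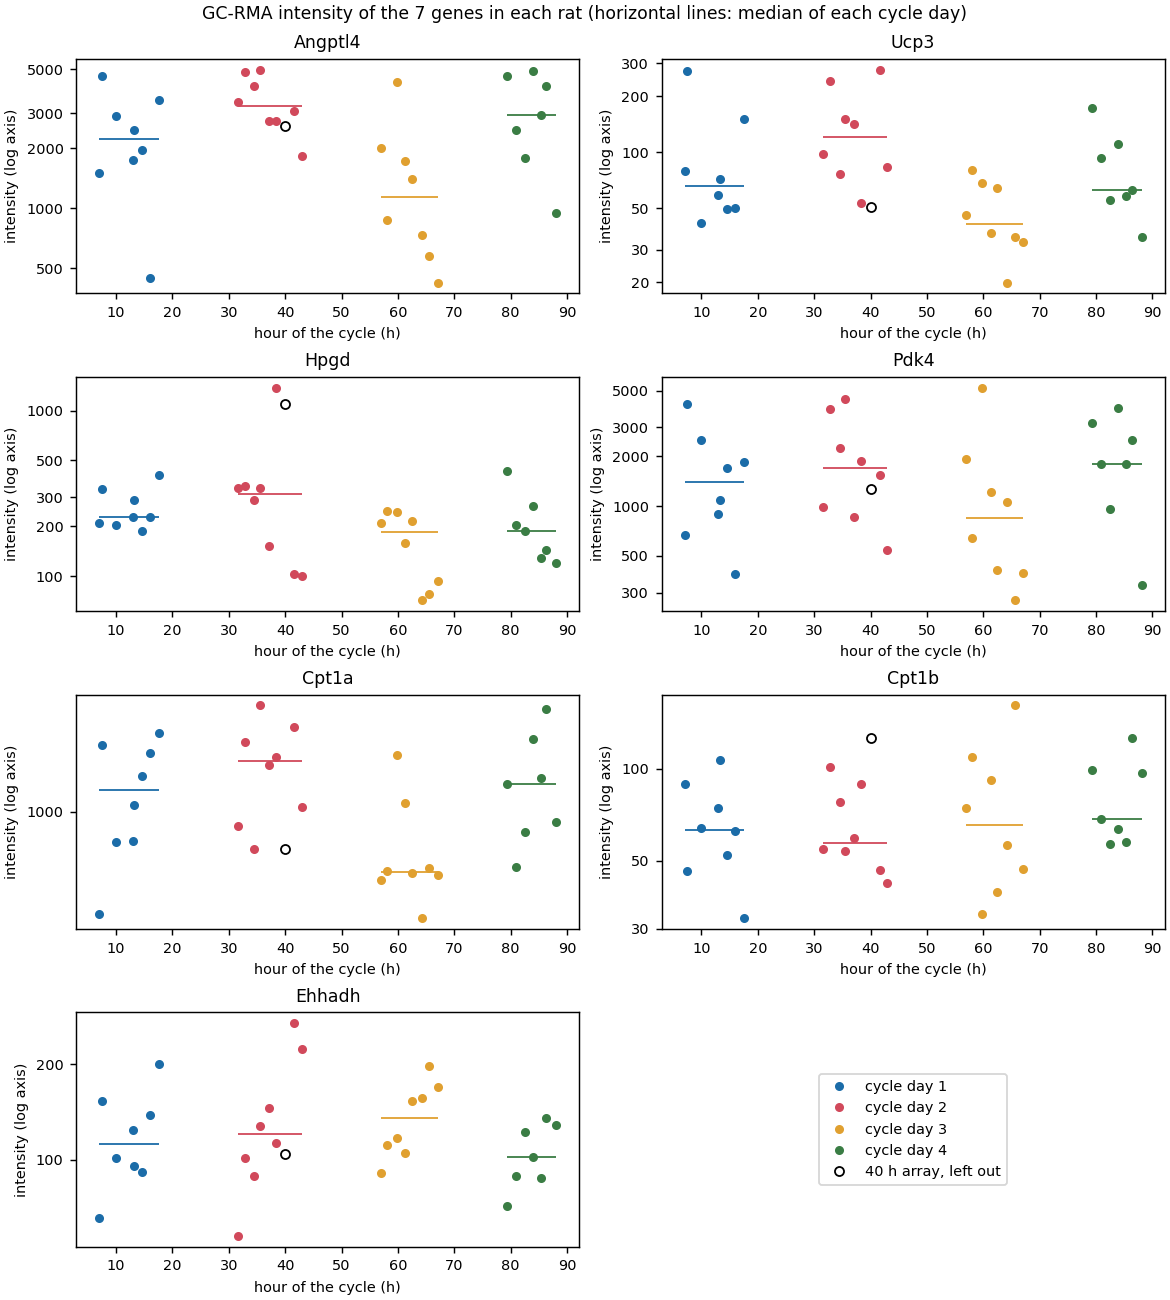
GC-RMA intensity (log axis) of the main probe set of each gene against the hour of the cycle in h, with 1 point per rat, colors for the 4 cycle days and a line at each day's median. The open circle is the 40.0 h array, which was left out. Angptl4 and Ucp3 have their lowest day medians on day 3 (1142 and 41.4), and Hpgd has a single rat at 1377 on day 2.

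Ehhadh was the 1 member called for a change with the hour of the day, and it was higher later in the day. Its intensity ran from 87.5 to 270 in later rats, with a median of 138, against 57.4 to 153 in earlier rats, with a median of 101. The groups overlapped, but 14 of 17 later rats were above the earlier median and 7 were above every earlier rat. The mean was 149 ± 50.2 (SD, n = 17) in later rats and 99.8 ± 25.7 (SD, n = 14) in earlier rats. The slope, fitted with limma on log2 intensity with cycle day as a factor, was 1.07 per 10 h (SE 0.17, adjusted p = 0.000207), or 2.1-fold over 10 h. It was above 0 within each day, at 0.68, 1.63, 0.99 and 0.82 for days 1 to 4. Without any 1 rat the slope stayed between 0.97 and 1.22 and the call was kept, but the plain contrast of later with earlier rats gave 0.54 with an adjusted p of 0.0608.

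Pdk4 and Angptl4 had lower medians later in the day and the steepest slopes below 0, which did not pass the threshold. Pdk4 ran from 269 to 2505 in later rats, with a median of 1064, against 639 to 5219 in earlier rats, with a median of 2379. Its mean was 1102 ± 678 (SD, n = 17) in later rats and 2607 ± 1531 (SD, n = 14) in earlier rats. The groups overlapped, with 16 of 17 later rats below the earlier median and 6 below every earlier rat. The slope was -1.54 per 10 h (SE 0.53, limma adjusted p = 0.162) for its main probe set and -1.55 (SE 0.50, adjusted p = 0.128) for the second. It was below 0 within each of the 4 days for both probe sets, between -2.87 and -0.48. Without the rat of 7.0 h the slope of its second probe set was -1.89 and its adjusted p 0.0443. Over the 31 omissions of 1 rat that slope ran from -1.89 to -1.33, with adjusted p-values up to 0.254, and the main probe set passed in none, with 0.074 the lowest.

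Angptl4 ran from 423 to 4093 in later rats, with a median of 1828, against 877 to 4960 in earlier rats, with a median of 3766. Its mean was 1962 ± 1122 (SD, n = 17) in later rats and 3377 ± 1428 (SD, n = 14) in earlier rats. Here too 16 of 17 later rats were below the earlier median, and 4 were below every earlier rat. The slope was -1.23 per 10 h (SE 0.39, limma adjusted p = 0.116, unadjusted p = 0.00368), and it was below 0 within each day, at -0.82, -0.90, -2.13 and -1.22 for days 1 to 4. Without the rat of 17.6 h, which had 3497 of Angptl4 late on day 1, the slope was -1.49 and the adjusted p 0.0391, the 1 omission that gave a call. Over all of them the slope ran from -1.49 to -1.03, with adjusted p-values up to 0.222.

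Hpgd was low in most of the later rats and had its single highest value in another of them. It ran from 71.6 to 1377 in later rats, with a median of 152, against 188 to 432 in earlier rats, with a median of 257. A set of 10 of the 17 later rats lay below every earlier rat, and 1 later rat, that of 38.3 h, lay above them all. The mean was 241 ± 305 (SD, n = 17) in later rats and 276 ± 73.9 (SD, n = 14) in earlier rats, so the SD of the later rats exceeded their mean. The slope was -1.08 per 10 h (SE 0.36, limma adjusted p = 0.143) for the main probe set and -1.10 (SE 0.36, adjusted p = 0.128) for the second. Within days 1 to 4 it was 0.23, -1.42, -1.75 and -1.78.

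The Hpgd slope passed the threshold on leaving out either of 2 of the 31 rats. Without the rat of 38.3 h it was -1.20 with an adjusted p of 0.00742 for the main probe set and -1.21 with 0.0171 for the second, so that both passed the threshold. Without the rat of 17.6 h it was -1.36 with an adjusted p of 0.0337 for the second probe set only. Over all such omissions the slope of the main probe set ran from -1.31 to -0.92, with adjusted p-values up to 0.34, and with the 40.0 h array put back it was -0.90 (adjusted p = 0.389). The discarded 40.0 h array stood at 1097, next to the rat of 38.3 h at 1377, while the rats on either side stood at 152 (37.1 h) and 104 (41.6 h). No other rat exceeded 432.

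Ucp3 and the carnitine palmitoyltransferases had the slopes nearest to 0, and none passed the threshold. Ucp3 ran from 19.9 to 277 in later rats, with a median of 58.3, against 41.8 to 274 in earlier rats, with a median of 86.8. Its slope was -0.78 per 10 h (SE 0.38, limma adjusted p = 0.401) and -0.64 (SE 0.34, adjusted p = 0.461) for its second probe set. Of the later rats 5 were below every earlier one and 1 was above.

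Cpt1a ran from 603 to 1632 in later rats, with a median of 1043, and from 616 to 1659 in earlier rats, with a median of 921, and its probe sets had slopes of 0.23 (SE 0.19, adjusted p = 0.659) and 0.31 (SE 0.23, adjusted p = 0.635). Cpt1b ran from 32.4 to 161 in later rats, with a median of 59.3, and from 33.5 to 109 in earlier rats, with a median of 66.2, and had a slope of -0.31 (SE 0.29, adjusted p = 0.709). Later and earlier rats overlapped almost wholly for both genes.

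Over the members, 1 of 11 probe sets was called higher later in the day and 0 lower, while 1.08% of all probe sets tested were called higher and 0.68% lower. At an unadjusted limma p under 0.05 there were 7 members, 6 of them with a slope below 0, beside 12.1% of all probe sets and 4.51% with a slope below 0. The median slope of the 11 was -0.78, against 0.02 over all 22943 probe sets. Since the genes were gathered with these results in view, nothing is read from those shares. A difference in slope between the days was called for 0 of 11 members (F test of limma, every adjusted p = 1) and for 0.00436% of all probe sets. At an unadjusted limma p under 0.05 it held for 1 member, the second probe set of Cpt1a, and for 3.66% of all.

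**Figure D2:**
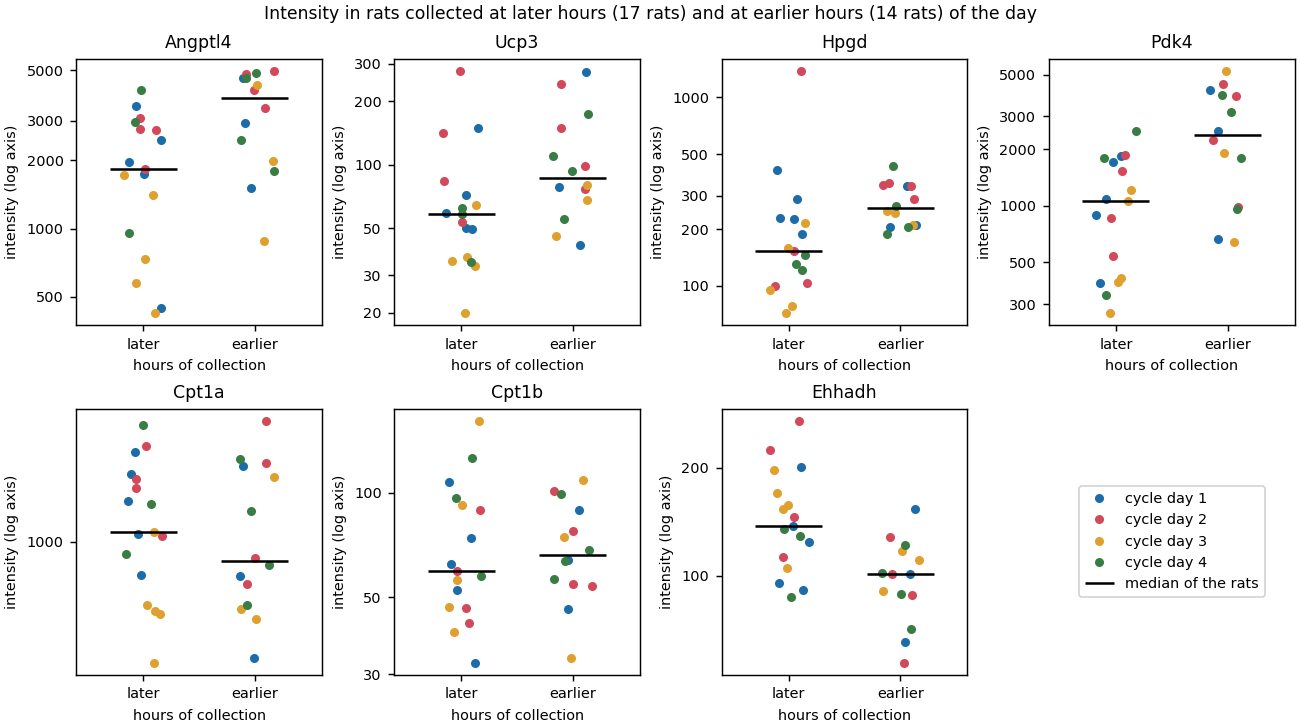
Intensity (log axis) of the main probe set of each gene in the 17 later rats and the 14 earlier rats, with 1 point per rat, colors for cycle days and a bar at the median. Ehhadh has the higher median in the later rats (138 against 101), while Pdk4 and Angptl4 have 16 of 17 later rats below the earlier median.

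Between the days of the cycle, the median of each gene but Ehhadh and Cpt1b was lowest on day 3. It was highest on day 2, the day of estrus, or for Pdk4 on day 4. None of the differences passed the threshold. The medians are not set to equal clock hour, and the mean clock hour was 13.94 on day 3 and 11.76 on day 4. Angptl4 had medians of 2221, 3251, 1142 and 2944 on days 1 to 4, with ranges of 447 to 4626, 1828 to 4960, 423 to 4307 and 952 to 4864. On day 3, 6 of 8 rats were below every rat of day 2. Its level on day 3 minus that on day 2 was -1.37 on the log2 scale at equal clock hour (SE 0.38, limma adjusted p = 0.118).

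Ucp3 had medians of 65.5, 120, 41.4 and 62.7 on days 1 to 4, with ranges of 41.8 to 274, 53.5 to 277, 19.9 to 80.3 and 34.8 to 173. All 8 rats of day 3 were below the median of day 2 and 5 were below every rat of day 2. Day 3 minus day 2 was -1.38 (SE 0.36, limma adjusted p = 0.102) and, for the second probe set, -1.16 (SE 0.33, adjusted p = 0.135). These are the lowest adjusted p-values of the gene's 6 pairs of days for each probe set. For the second probe set day 4 was as low as day 3 at equal clock hour. Its day 4 minus day 3 was 0.01 (SE 0.34, limma adjusted p = 0.996), against 0.59 (SE 0.38, adjusted p = 0.856) for the main probe set.

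Cpt1a had medians of 1109, 1275, 752 and 1139 on days 1 to 4, with ranges of 616 to 1457, 837 to 1659, 603 to 1310 and 768 to 1632. As for Angptl4, 6 of 8 rats of day 3 lay below every rat of day 2. Day 3 minus day 2 was -0.60 (SE 0.18, limma adjusted p = 0.166), and -0.80 (SE 0.22, adjusted p = 0.130) for the second probe set.

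Hpgd had medians of 228, 315, 185 and 188 on days 1 to 4, with ranges of 189 to 410, 100 to 1377, 71.6 to 248 and 121 to 432. All 8 rats of day 3 were below the median of day 2, though day 2 itself held rats at 104 and 100. Day 3 minus day 2 was -0.73 (SE 0.35, limma adjusted p = 0.389), and -0.35 without the rat of 38.3 h. Pdk4 had medians of 1397, 1707, 851 and 1796, with ranges of 390 to 4155, 540 to 4457, 269 to 5219 and 334 to 3912, so the days overlapped throughout. Its day 3 minus day 2 was -0.72 (SE 0.51, adjusted p = 0.570). Although the Pdk4 median was higher on day 4 than on day 2, day 4 minus day 2 at equal clock hour was -0.15 (SE 0.53, limma adjusted p = 0.971).

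Ehhadh and Cpt1b did not share this order of days. Ehhadh had medians of 113, 121, 135 and 102 on days 1 to 4 and a day 3 minus day 2 difference of -0.05 (SE 0.16, adjusted p = 0.929). Cpt1b had medians of 63.0, 57.0, 65.3 and 68.5 and a difference of 0.14 (SE 0.28, adjusted p = 0.868). For both, the rats of each day overlapped with those of every other day.

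The F test over the 4 days called 0 of 11 members, with 0.501% of all probe sets called, and 5 members had an unadjusted limma p under 0.05, beside 10.9% of all probe sets. The lowest adjusted p-values were 0.184 and 0.237 for the probe sets of Ucp3, 0.249 for Angptl4 and 0.283 for the second probe set of Cpt1a. In the 6 pairs of days 0 of 66 member contrasts were called. The shares of all probe sets called were 0.00436% for day 2 minus day 1, 0.955% for day 3 minus day 1, 0.0218% for day 4 minus day 1, 0.227% for day 3 minus day 2, 0.0479% for day 4 minus day 2 and 0% for day 4 minus day 3. Day 3 minus day 2 was below 0 for 10 of 11 members, with a median of -0.80 against -0.02 over all probe sets. Day 2 minus day 1 was above 0 for all 11, from 0.03 to 0.77, with adjusted p-values from 0.859 to 0.998. Since the genes were gathered with such changes in view, nothing is read from these counts, shares and medians. Ucp3, Hpgd, Pdk4 and Cpt1a also enter them with a pair of probe sets each.

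**Figure D3:**
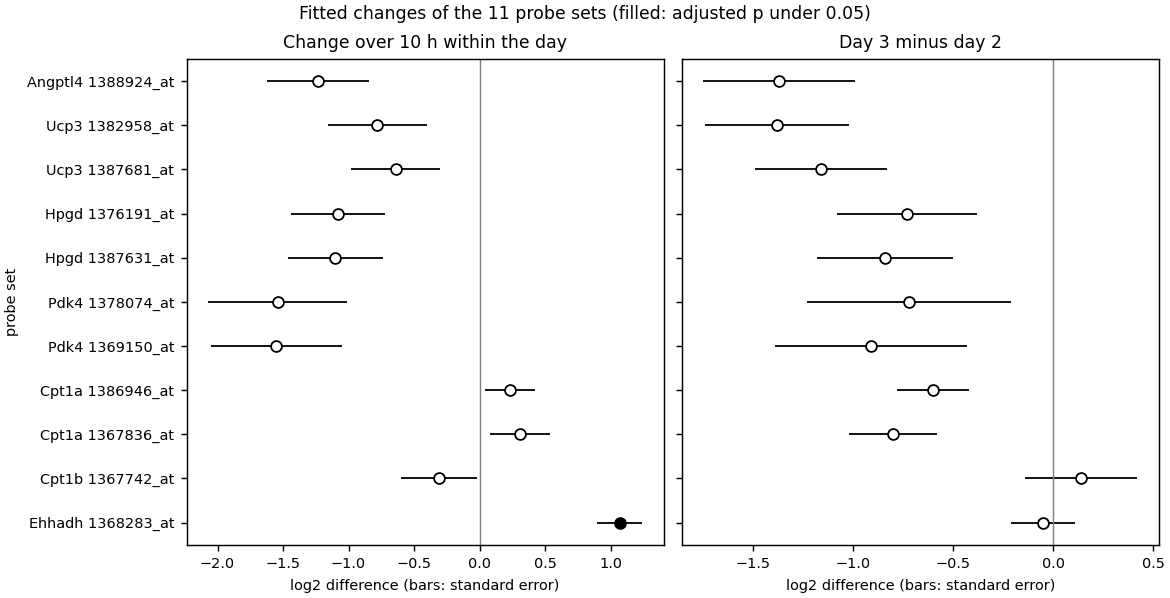
Fitted log2 change over 10 h within the day (left) and log2 difference of day 3 minus day 2 (right) for the 11 probe sets, with standard errors from limma as bars and filled points where the adjusted p is under 0.05. Ehhadh alone is filled (1.07 over 10 h). For day 3 minus day 2, 10 of 11 points lie below 0, among genes chosen with such changes in view.

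The study's own test for change over time, called Method 1, fits a spline to the log profile and takes rho, the share of its variance that the fit keeps, with a false discovery rate of 0.25. It called 7 of 11 members, with 8.04% of all probe sets called, and the same reservation about the choice of genes holds. Ehhadh had the highest rho, 0.688 (adjusted p = 0.0136), above 99.5% of all probe sets. Hpgd followed with 0.547 for the second probe set and a lower, still called value for the main one, Angptl4 with 0.530, the second probe set of Cpt1a with 0.514 and Ucp3 with 0.507 and 0.489. The main probe set of Cpt1a (0.393), both of Pdk4 (0.333 and 0.405) and Cpt1b (0.134) were not called. Pdk4 thus had the steepest slopes over the day in the linear fit and yet rho values that only 73.9% and 86.4% of all probe sets lay below. At a false discovery rate of 0.05 Method 1 called Ehhadh alone of the members and 1.69% of all probe sets. With a spline of order 3 it called 1 member, the main probe set of Ucp3, and 3.39% of all.

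Across rats, Angptl4 and Pdk4 were the pair that moved most closely together. Over the 31 rats Pearson's r of their log2 intensities was 0.86 and Spearman's rho 0.88 (permutation test with 100000 resamples, two-sided, adjusted p = 0.00018 for each over 18 pairs, from the smallest p the resamples can give, 1e-05). Since the genes were chosen for their change over the day and the cycle, such a plain r also holds any course they share in time, so each pair was tested again on what was left once cycle day and clock hour were removed, a step added after the plain values were seen. The rats of 35.5, 32.8, 83.9 and 7.5 h, on 3 different days, had 4960, 4825, 4864 and 4626 of Angptl4 and 4457, 3850, 3912 and 4155 of Pdk4. At the low end the rats of 67.1, 16.0 and 65.6 h had 423, 447 and 573 of Angptl4 and 395, 390 and 269 of Pdk4. After that removal r was 0.84 (permutation of the residuals, adjusted p = 0.00018 over 18 pairs). The removal took out the mean level of each day and a straight slope over the hours shared by the days. A curved course, or a slope that differs between days, stayed in, and its part in the 0.84 was not tested. Without the 2 rats farthest from the median of Angptl4 the plain r was 0.85, and without any 1 rat it was between 0.84 and 0.88.

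Cpt1a varied with this pair and with Ucp3. Its r was 0.59 with Angptl4 (rho 0.68, permutation adjusted p = 0.00384 for r and 0.00027 for rho), 0.58 with Ucp3 (rho 0.52, adjusted p = 0.00384 and 0.0111) and 0.55 with Pdk4 (rho 0.53, adjusted p = 0.00612 and 0.0111). After cycle day and clock hour were removed these were 0.64, 0.55 and 0.69 (permutation of the residuals, adjusted p = 0.00171, 0.0108 and 0.0009). Without the 2 rats farthest from the median of Angptl4, Ucp3 and Pdk4 in turn, the plain r was 0.73, 0.52 and 0.54. Pdk4 passed in the plain values with Ucp3 (r = 0.50, rho = 0.43, permutation adjusted p = 0.0131 and 0.0475) and with Hpgd (r = 0.49, rho = 0.54, adjusted p = 0.0131 and 0.0111), but not once day and hour were removed. Then r was 0.33 with Ucp3 and 0.29 with Hpgd (permutation of the residuals, adjusted p = 0.194 and 0.232). Without the 2 rats farthest from the median of Ucp3 and of Hpgd in turn, the plain r was 0.48 and 0.58.

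Angptl4, Ucp3 and Hpgd, the genes put forward as moving together, had an r of 0.68 for Angptl4 with Ucp3 (rho 0.70), 0.53 for Angptl4 with Hpgd (rho 0.58) and 0.41 for Ucp3 with Hpgd (rho 0.55), given without a test. After cycle day and clock hour were removed they had 0.46, 0.28 and 0.10. The rat of 38.3 h was the highest in Hpgd and the lowest of day 2 in Ucp3 (53.5). Without it the plain r of Ucp3 with Hpgd was 0.58. The r after removal of day and hour was not computed again without that rat. Whether 0.28 and 0.10 rest on it was not tested. By these values Pdk4 stood nearer to Angptl4 than Ucp3 or Hpgd did; the difference between the correlations was not tested.

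**Figure D4:**
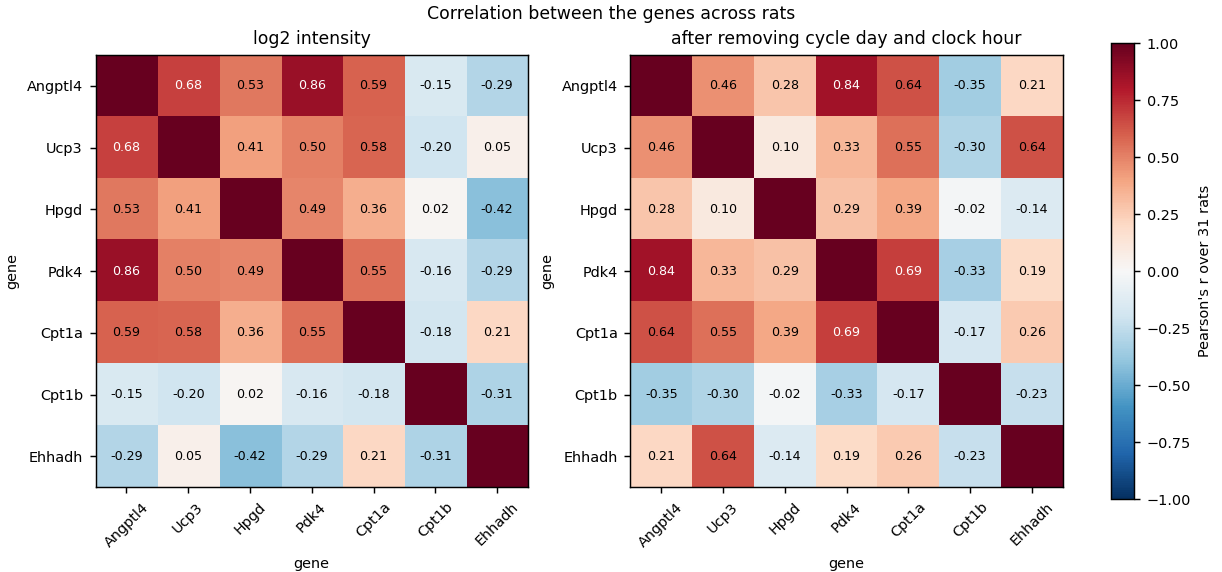
Pearson's r between the log2 intensities of the 7 genes over 31 rats (left) and after cycle day and clock hour were removed (right), with blue below 0 and red above. Angptl4 with Pdk4 has the highest value on both sides (0.86 and 0.84), and Cpt1b has no value above 0.02 with any other gene.

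Ehhadh stood apart from these genes in the plain values and closer to one of them after day and hour were removed. Its r was -0.42 with Hpgd (rho -0.41, permutation adjusted p = 0.0479 for r and 0.0641 for rho). Without the 2 rats farthest from the median of Hpgd it was -0.49. The call was lost on leaving out any of 18 of the 31 rats, with r from -0.51 to -0.37. With day and hour removed it was -0.14 (permutation of the residuals, adjusted p = 0.489). With Ucp3 the plain r was 0.05 (rho -0.06, permutation adjusted p = 0.853 and 0.770) and that after removal of day and hour was 0.64 (adjusted p = 0.00171). The rat of 41.6 h was highest in both, at 270 of Ehhadh and 277 of Ucp3, and the rat of 7.5 h had the highest Ehhadh of the earlier rats (153) beside 274 of Ucp3. Without the 2 rats farthest from the median of Ucp3 the plain r was -0.23. The r after removal of day and hour was not computed again without any rat, so whether 0.64 rests on these rats was not tested. Of the 18 tested pairs 7 passed by Pearson's r and 6 by Spearman's rho in the plain values, and 5 by r after day and hour were removed. Cpt1b passed with no other gene in either.

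Cpt1b followed the tissue markers instead. It had an r of 0.70 with the adipocyte score (rho 0.66, permutation adjusted p = 0.00056 and 0.00308 over 56 relations of 8 scores with 7 genes), 0.65 with the brown adipocyte score (rho 0.63, adjusted p = 0.00187 and 0.00485), 0.60 with the endothelial score (rho 0.59, adjusted p = 0.00378 and 0.00938) and 0.55 with the skeletal muscle score (rho 0.58, adjusted p = 0.0181 and 0.00974). With the luminal epithelial score it had -0.51 (rho -0.55, adjusted p = 0.0248 and 0.0138). Without the 2 rats farthest from the median of the score these were 0.69, 0.70, 0.47, 0.59 and -0.41. The rat of 65.6 h had both the highest Cpt1b (161) and the highest adipocyte score (0.79). The 3 brown adipocyte genes measured, Cidea, Cox7a1 and Cox8b, include none of Ucp1, Elovl3 and Dio2. The brown adipocyte and skeletal muscle scores were highest in the same rat, that of 13.2 h (1.36 and 2.87). Whether Cpt1b follows either score apart from the other was not tested.

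**Figure D5:**
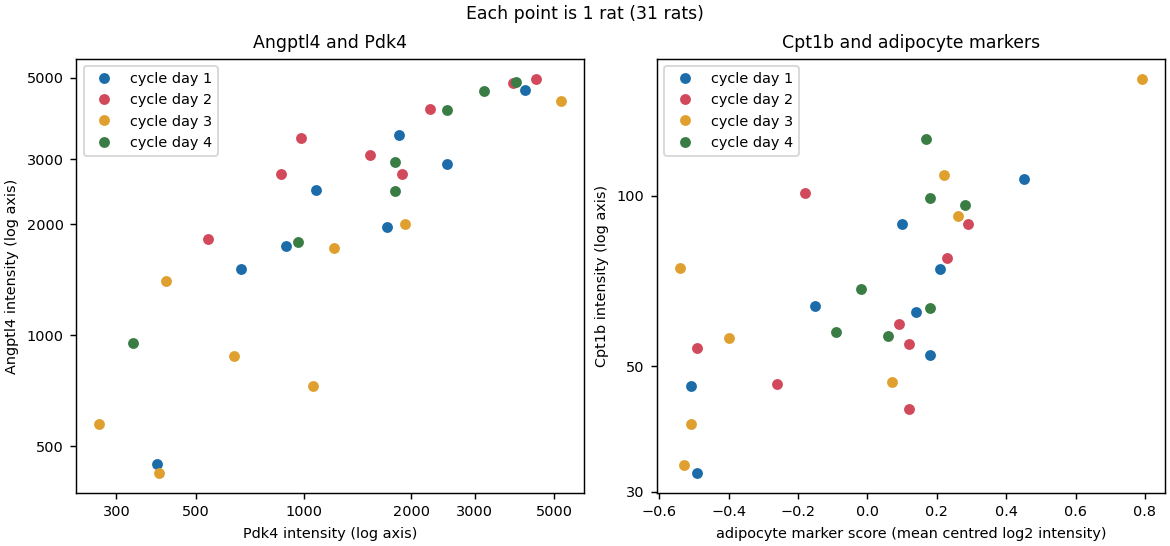
Left, Angptl4 intensity against Pdk4 intensity (log axes), and right, Cpt1b intensity (log axis) against the adipocyte marker score (mean centred log2 intensity), with 1 point per rat and colors for cycle days. Angptl4 and Pdk4 rise together (r = 0.86) with rats of all 4 days along the line, and Cpt1b rises with the adipocyte score (r = 0.70).

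Of the other members only Ehhadh passed with a marker score in the plain values. Its r was 0.52 with the luminal epithelial score (rho 0.55, permutation adjusted p = 0.0239 and 0.0137, 0.52 without the 2 farthest rats) and -0.64 with the endothelial score (rho -0.64, adjusted p = 0.00187 and 0.00308, -0.62 without the 2 farthest rats). The endothelial score rests on 3 of 4 markers. The luminal score had a median of -0.02 in later rats and 0.01 in earlier rats, and the endothelial score -0.07 in later rats and 0.09 in earlier rats. With the muscle and adipocyte scores as covariates Ehhadh was still called for its slope, while the part of the luminal and endothelial scores in it was not tested. Pdk4 with the adipocyte score had -0.46 (rho -0.36, adjusted p = 0.0737 and 0.322). After cycle day and clock hour were removed, r with the adipocyte score was -0.52 for Pdk4 and -0.46 for Angptl4. With the luminal score Pdk4 then had 0.51 and Ehhadh 0.45, and Ehhadh had -0.46 with the endothelial score. These values after removal were not tested. Angptl4, Ucp3, Hpgd, Pdk4 and Cpt1a had a plain r between -0.06 and 0.14 with the skeletal muscle score. With it and the adipocyte score as covariates day 3 minus day 2 was -1.47 for Angptl4 (limma adjusted p = 0.0396). For Ucp3 it was -1.46 (adjusted p = 0.0413) by the main probe set and -1.24 (adjusted p = 0.0552) by the second, which was not called.

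No other gene of the fatty acid oxidation pathway was called for the slope over the day. Of 20 mitochondrial genes measured 0 were called for the slope in either direction, with a median slope of 0.06, and of 9 of 12 peroxisomal genes 0 were called, with a median of 0.04. Hsd17b4, the other bifunctional enzyme of the peroxisome, had a slope of -0.07 (SE 0.08, limma adjusted p = 0.792), beside 1.07 for Ehhadh. On day 3 relative to day 2, 1 gene of these lists was called, Eci2, an isomerase needed for unsaturated fatty acids, which fell by 0.57 on the log2 scale (SE 0.12, adjusted p = 0.0389). On day 3 relative to day 1 it was Decr2, a peroxisomal reductase of unsaturated fatty acids, which was higher by 0.32 (SE 0.08, adjusted p = 0.0469). Eci1, a related isomerase, had -0.62 (SE 0.20, adjusted p = 0.199), Ech1, a further enzyme of unsaturated fatty acids, -0.47 (SE 0.14, adjusted p = 0.161) and Cpt2, the inner membrane partner of Cpt1a, -0.12 (SE 0.13, adjusted p = 0.702). The median of day 3 minus day 2 was -0.12 over the mitochondrial list and -0.08 over the peroxisomal list.

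Among 16 of 20 other PPAR target genes measured, 1 was higher later in the day and 0 lower, with a median slope of 0.21. It was Plin4, a lipid droplet coat protein of adipocytes, with 2131 ± 756 (SD, n = 17) in later rats and 1101 ± 216 (SD, n = 14) in earlier rats, and a slope of 1.23 (SE 0.22, limma adjusted p = 0.00145). G0s2, an inhibitor of fat breakdown, had 0.95 (SE 0.28, adjusted p = 0.0747), and Cd36, a fatty acid transporter, 0.01 (SE 0.14, adjusted p = 0.990). Of 11 of 12 receptors and coregulators 1 rose and 1 fell. Pparg, the PPAR of fat cells, was higher later in the day (1028 ± 268 in later rats and 613 ± 162 in earlier rats, SD, slope 0.92, SE 0.24, adjusted p = 0.0435). Rxrg, one of the RXR partners, was lower (53.4 ± 16.9 in later rats and 74.0 ± 25.1 in earlier rats, SD, slope -0.83, SE 0.19, adjusted p = 0.0182). Ppard had 0.01 (SE 0.11, adjusted p = 0.980), and Ppara was not among the probe sets tested.

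Among the direct partners of the members 1 gene was called for the slope. For Pdk4 these are the pyruvate dehydrogenase genes, of which 9 of 10 were measured and 0 called, with Pdk2 at 0.13 (SE 0.14, limma adjusted p = 0.764) and Pdha1, the subunit that the kinases act on, at -0.22 (SE 0.14, adjusted p = 0.571). For Angptl4 they are the genes around lipoprotein lipase, 5 of 7 measured and 0 called, with Lpl itself at 0.04 (SE 0.12, adjusted p = 0.937). For Cpt1a and Cpt1b they are the genes of malonyl-CoA, which inhibits both, and of AMPK, 6 of 7 measured and 0 called, with Acaca at -0.25 (SE 0.32, adjusted p = 0.809). For Hpgd they are the prostaglandin genes, 10 of 11 measured, of which Cbr1, a carbonyl reductase that acts on prostaglandins, was higher later in the day (4141 ± 1755 in later rats and 2594 ± 1627 in earlier rats, SD, slope 1.03, SE 0.26, adjusted p = 0.0345), and Slco2a1, the prostaglandin transporter, had 0.16 (SE 0.26, adjusted p = 0.858).

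Of 10 of 11 glucocorticoid-responsive genes measured 5 were higher later in the day and 0 lower, with a median slope of 0.44. They were Per1, also a clock gene, at 1.78 (SE 0.26, limma adjusted p = 5.1e-05), Tsc22d3 at 1.21 (SE 0.18, adjusted p = 7.6e-05), Fkbp5, a chaperone of the glucocorticoid receptor, at 1.16 (SE 0.28, adjusted p = 0.0204), Klf9, a transcription factor, at 0.74 (SE 0.14, adjusted p = 0.00235) and Nfkbia, the inhibitor of NF-kappaB, at 0.44 (SE 0.11, adjusted p = 0.0408). Over all probe sets tested 1.08% were called higher later in the day and 0.68% lower. Pdk4 and Angptl4, which glucocorticoids are known to raise in some tissues, had slopes of -1.54 and -1.23, neither of which passed. Any part of glucocorticoids in the slopes of the members was not tested. No hormone was measured in the files used here.

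The genes outside the set with profiles most like those of the members were ranked by Pearson's r over the 31 rats, as a description of these arrays. For Cpt1a they were Acadl (0.91), Ech1 (0.86) and Eci1 (0.83), all of fatty acid oxidation. For Pdk4 they were Klf11 (0.89), Txnip (0.77) and Sbno2 (0.75), and for Angptl4 Klf10 (0.82), Klf11 (0.72) and C2h3orf80 (0.71). Klf10 and Klf11 are related transcription factors, and after day and hour were removed r was 0.82 for Klf10 with Angptl4 and 0.88 for Klf11 with Pdk4. Their own slopes were -0.30 per 10 h for Klf10 and -0.40 for Klf11 (limma adjusted p = 0.376 and 0.448). For Ucp3 the nearest were Atp2c1 (0.74), Eci2 (0.73) and C2h3orf80 (0.69).

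For Ehhadh they were Abhd14a (0.84), Srebf1 (0.83), a transcription factor of lipid synthesis that was itself higher later in the day (slope 0.77, limma adjusted p = 0.0171), and Amt (0.82). For Cpt1b they were Sgca (0.84), a protein of the muscle membrane, Lrrc39 (0.83) and Camk2b (0.81). For Hpgd they were Hpf1 (0.79), Aadat (0.73) and Nceh1 (0.70). For the mean of Angptl4, Ucp3 and Hpgd they were Gadd45g (0.77), C2h3orf80 (0.75), Ctla2a (0.72), Klf10 (0.72) and Adamts4 (0.71), and Adamts4, a matrix protease, was lower later in the day (slope -1.79, adjusted p = 3.69e-07).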

How the data were processed

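RNA from the mammary glands of 32 rats was hybridized to Affymetrix Rat 230 2.0 arrays, 1 per rat. The authors deposited intensity values that they had computed with GC-RMA in GeneSpring (GCRMA in the submitters' processing notes), which corrects background and normalizes the arrays together, on a linear scale. Each time point has 1 rat, the number of arrays limits the precision, and the spread around a fit holds rat and measurement error together. No scan batch was known. The sources differ on which glands were taken and how the tissue was kept, and this was not settled here.

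The 57 control probe sets and those with a median intensity under 10 over the 31 arrays were left out, and log2 intensities were fitted with limma 3.58.1 (R 4.3.3) with cycle day as a factor and clock hour as a slope. P-values were adjusted by Benjamini-Hochberg over all 22943 probe sets, with a threshold of 0.05. Of these probe sets 16618 had 1 gene symbol in the platform annotation, 372 several and 5953 none, and 16568 of the first were found in the GRCr8 gene table. Method 1 used a spline of order 2 and the study's permutation of the time points. Correlations used permutation tests (scipy 1.17.1), also on residuals after cycle day and clock hour, which were permuted and fitted again. The scripts were tested on simulated data.

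The members and the gene lists were chosen with earlier results of these data known. Named are all members, the genes of the pathway lists past the threshold for the slope or for cycle day, a few listed genes with a role close to a member's, and the genes of highest correlation with each. Eci2, Decr2 and Fabp3 were named after their values were seen. Alternatives were the minimum intensity, the 40.0 h array, quantile normalization, array weights, an intensity trend, marker scores as covariates, later against earlier rats, each rat left out, the false discovery rate and the spline order.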

Additional observations from a re-analysis of the deposited data

Results flagged for a closer look

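Within each cycle day the highest and lowest rat of every member probe set was compared with the next rat, by Dixon's gap ratio at the 95% level. On the intensity scale 6 of 44 groups held a rat far from the others, and on the log2 scale, on which every test was run, 0 did. Chance gives about 1 in 20 for independent groups with a normal spread. The groups here share rats and hold pairs of probe sets of the same gene, so the 6 are not judged against that rate. On day 2 the rat of 38.3 h had 1377 of Hpgd by 1376191_at, with the next rat at 349, and 694 by 1387631_at, with the next at 223. On day 3 the rat of 59.8 h had 5219 of Pdk4 by 1378074_at, with the next at 1919, 1023 by 1369150_at, with the next at 295, and 4307 of Angptl4, with the next at 1998. On day 1 the rat of 7.5 h had 274 of Ucp3 by 1382958_at, with the next at 150.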

How the results depend on the processing

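The count of members called for the slope over the day was 1, with Ehhadh called in every setting but the plain contrast of later with earlier rats, where 0 were called. It was 2 with array weights, with 1387631_at of Hpgd added, and from 1 to 3 on leaving out each rat, with 2 without the rat of 7.0 h (1369150_at of Pdk4 added), 3 without that of 17.6 h (1387631_at of Hpgd and Angptl4 added) and 3 without that of 38.3 h (both probe sets of Hpgd added). The count over pairs of days was 0, and 2 with array weights (Ucp3 and 1367836_at of Cpt1a on day 3 relative to day 2) and 2 with marker scores as covariates (Ucp3 and Angptl4). Method 1 called 7 members, 1 at a false discovery rate of 0.05 and 1 with order 3. The counts for cycle day and for slope by day were 0 in every setting. Among the slopes and the day 3 minus day 2 differences, signs turned only for values of Cpt1b and Ehhadh that were not called. The Cpt1b slope was -0.31, and 0.00 in the contrast of later with earlier rats. On leaving out each rat, day 3 minus day 2 ran from -0.05 to 0.30 for Cpt1b and from -0.13 to 0.05 for Ehhadh. For Ehhadh it was 0.03 on all 32 arrays, and 0.01 with later against earlier rats in place of the hour. With array weights day 3 minus day 1 was 0.18 and 0.05 for the probe sets of Pdk4, against -0.32 and -0.38 without them, none of them called. The number of related pairs was 7, with 6 or 7 on leaving out each rat and 5 after removal of day and hour, 4 of them among the 7, both settings chosen after seeing the data. No paired analysis was possible because each rat was measured once and replicate numbers only name rats in order of time. Each hour has 1 rat, rats were taken by day only, and a change overnight was not measured.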

Other observations

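Fabp3, a fatty acid binding protein of muscle and mammary epithelium and a PPAR target, had an SD above its mean in both groups, with 882 ± 1467 (SD, n = 17) in later rats and 239 ± 359 (SD, n = 14) in earlier rats. Its slope was 1.74 (SE 0.80, limma adjusted p = 0.372) and its day 3 minus day 2 difference -2.48 (SE 0.77, adjusted p = 0.183).

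Hpf1 and Aadat, the genes with profiles nearest to Hpgd, lie on the same chromosome as Hpgd in GRCr8, at chr16:34211971-34230551 and chr16:34520236-34566388, with Hpgd at chr16:38996876-39034831. There are 11 protein-coding genes that start between Hpf1 and Hpgd, and 9 between Aadat and Hpgd. After cycle day and clock hour were removed, r with Hpgd was 0.83 for Hpf1 and 0.65 for Aadat (31 rats). The pairs were chosen after their values were seen, and no test was made.

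On the 40.0 h array, which had been discarded, the other members stood at 2578 for Angptl4, 1270 for Pdk4, 51.0 for Ucp3, 840 for Cpt1a, 126 for Cpt1b and 104 for Ehhadh, all within the range of the 31 rats.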
